A study of Homo sapiens with 8 samples.

Results

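The cytosolic ribosomal protein genes encode the protein parts of the ribosomes that translate nuclear mRNAs. Their promoters were examined in ATAC-seq peak lists of HUDEP-2 cells, an immortalized human erythroid progenitor line made from cord blood. Members were the protein-coding genes of the GRCh37 annotation whose symbol is RPL or RPS followed by a number with at most letters after it, plus RPSA, RPLP0, RPLP1 and RPLP2. The S6 kinases were left out. This rule took 82 of 20163 protein-coding genes, 50 of the large subunit and 32 of the small subunit, spread over 21 chromosomes with 12 of them on chromosome 19. The rule used no measured value. A promoter peak was a peak whose summit, its point of highest pileup, lay within 1 kb of an annotated start site of the gene, and the peak with the highest fold enrichment stood for a gene with several.

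ATAC-seq maps open chromatin through the places where the Tn5 transposase can insert adapters. All cells carried the control guide (sgControl), which per the methods was delivered by lentivirus, and had been expanded in medium with stem cell factor (SCF), EPO, dexamethasone and doxycycline. Growth factors were withdrawn for 5 h, after which the cells received 50 ng/ml SCF, the ligand of the Kit receptor, or PBS for 1 h. Each treatment had 2 libraries of about 50000 cells, which the methods call biological duplicates of this 1 line. The 4 samples with a guide against EGR1 were not analysed here.

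The 4 lists held 29269 to 33616 peaks, and read totals are unknown from peak lists. The pileup at each summit was recovered as a whole number from the deposited values, and its median over all peaks was 20 to 26. Its units are called fragments here, but the sources used do not say whether fragments or single reads were counted. The background pileup was higher with PBS (1.05 and 1.5001 fragments) than with SCF (0.944 and 0.885), and was highest in PBS replicate 2. Of 10 erythroid marker genes, 9 had a promoter peak in all 4 libraries, GATA1, KLF1 and KIT among them, and ALAS2 had one in PBS replicate 2 alone. Of 12 genes that mark other lineages, 8 had no promoter peak in any library, including CD3E, MPO and ALB.

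Ribosomes are assembled from rRNA and about equal amounts of each ribosomal protein, and growing cells spend much of their transcription on these genes. Most ribosomal protein mRNAs begin with a C followed by a run of pyrimidines, the 5′ terminal oligopyrimidine (TOP) motif, through which growth signals control their translation. In red cell precursors the genes are known for Diamond-Blackfan anaemia, in which loss of 1 copy of RPS19, RPL5, RPL11 or another ribosomal protein gene impairs erythroid output.

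The start sites are shown for the members with the highest and lowest ranks and for 3 anaemia genes, because most members held a pyrimidine run there. Each line gives the sense strand 5′ to 3′ around the start site of the Ensembl canonical transcript in GRCh37, with the unbroken run of C and T across that start in capitals. Where little annotated exon lies upstream, 60 bases before and 20 from the start are given, and 15 and 15 otherwise. The order is by rank for RPS14, RPL5, RPL36, RPS25 and RPS16, then RPS19 and RPL11, and then RPL12 and RPL41, the lowest. The rank of RPL36 belongs to a peak at a mean of -9.45 kb (upstream) from the start printed here.
RPS14: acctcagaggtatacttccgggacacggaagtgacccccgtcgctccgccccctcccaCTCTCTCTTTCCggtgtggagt
RPL5: cgcaagggctgtggCCCTTTTCCCaccccc
RPL36: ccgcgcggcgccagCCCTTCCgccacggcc
RPS25: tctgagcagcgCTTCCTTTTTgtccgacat
RPS16: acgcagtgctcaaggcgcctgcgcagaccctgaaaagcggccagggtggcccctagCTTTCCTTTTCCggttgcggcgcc
RPS19: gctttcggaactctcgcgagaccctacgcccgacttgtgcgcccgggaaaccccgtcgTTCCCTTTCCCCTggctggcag
RPL11: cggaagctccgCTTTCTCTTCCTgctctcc
RPL12: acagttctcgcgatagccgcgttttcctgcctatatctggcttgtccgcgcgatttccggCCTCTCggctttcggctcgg
RPL41: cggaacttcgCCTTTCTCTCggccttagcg
RPS14 lies at chr5:149829283-149829362, minus strand. RPL5 lies at chr1:93297582-93297611, plus strand, RPL36 at chr19:5690291-5690320, plus strand, and RPS25 at chr11:118889039-118889068, minus strand. RPS16 lies at chr19:39926570-39926649, minus strand, RPS19 at chr19:42364265-42364344, plus strand, and RPL11 at chr1:24018281-24018310, plus strand. RPL12 lies at chr9:130213666-130213745, minus strand, and RPL41 at chr12:56510402-56510431, plus strand. All of them started with C, and their runs were 6 to 13 bases long, with the shortest in RPL12 and the longest in RPS19.

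The run was common among the members. Of the 82 canonical starts, 63 (76.8%) had C as the first transcribed base, against 2125 of 19881 protein-coding genes (10.7%). A run of at least 6 pyrimidines across the start was present in 61 members (74.4%) against 6.53% of protein-coding genes. The median run was 11 bases in the members and 0 in all protein-coding genes. Members without C at the start included RPL4, RPL17, RPS26 and RPL32, and the paralogs RPL39L, RPS27L, RPL3L and RPL10L. The letters TATA on the sense strand within the 40 to 21 bases before the start were found in 15 members (18.3%) and in 7.87% of protein-coding genes. RPLP0, RPS2, RPS3, RPL6, RPL10 and RPL12 were among the 15. These are annotated starts, and no start was measured in these cells.

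Nearly all members had an accessible promoter. A promoter peak was called in all 4 libraries for 78 of the 82 genes (95.1%), against 59.7% of all protein-coding genes, and no member was called in only some libraries. No peak was shared by a pair of members. The mitochondrial ribosomal protein genes, which serve the ribosomes of the mitochondrion, had a promoter peak in all libraries for 76 of 78 genes (97.4%). For proteasome subunit genes, another set of constitutive complex genes, the number was 34 of 39 (87.2%). All 18 genes of other TOP mRNAs (such as EEF1A1, EEF2 and TPT1) and all 25 ribosome biogenesis genes (such as FBL, NOP56 and BYSL) had one.

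The peaks of members were ranked within each library by fold enrichment, with 100 as the highest. Fold enrichment is the ratio of the summit pileup to the local background, with 1 added to both. The median rank over members was 83.3 and 84.7 with PBS and 81.3 and 84.1 with SCF (replicates 1 and 2, the order kept in all pairs of values that follow). The treatments overlapped. Averaged over the libraries, the members had a median rank of 83.3, with quartiles at 73.6 and 92.3. All protein-coding promoters called in all libraries had a median of 78.4, mitochondrial ribosomal protein promoters 83.9 and proteasome promoters 84.5. The lowest mean rank of a member was 50.7, and 23 members averaged above 90.

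**Figure D1:**
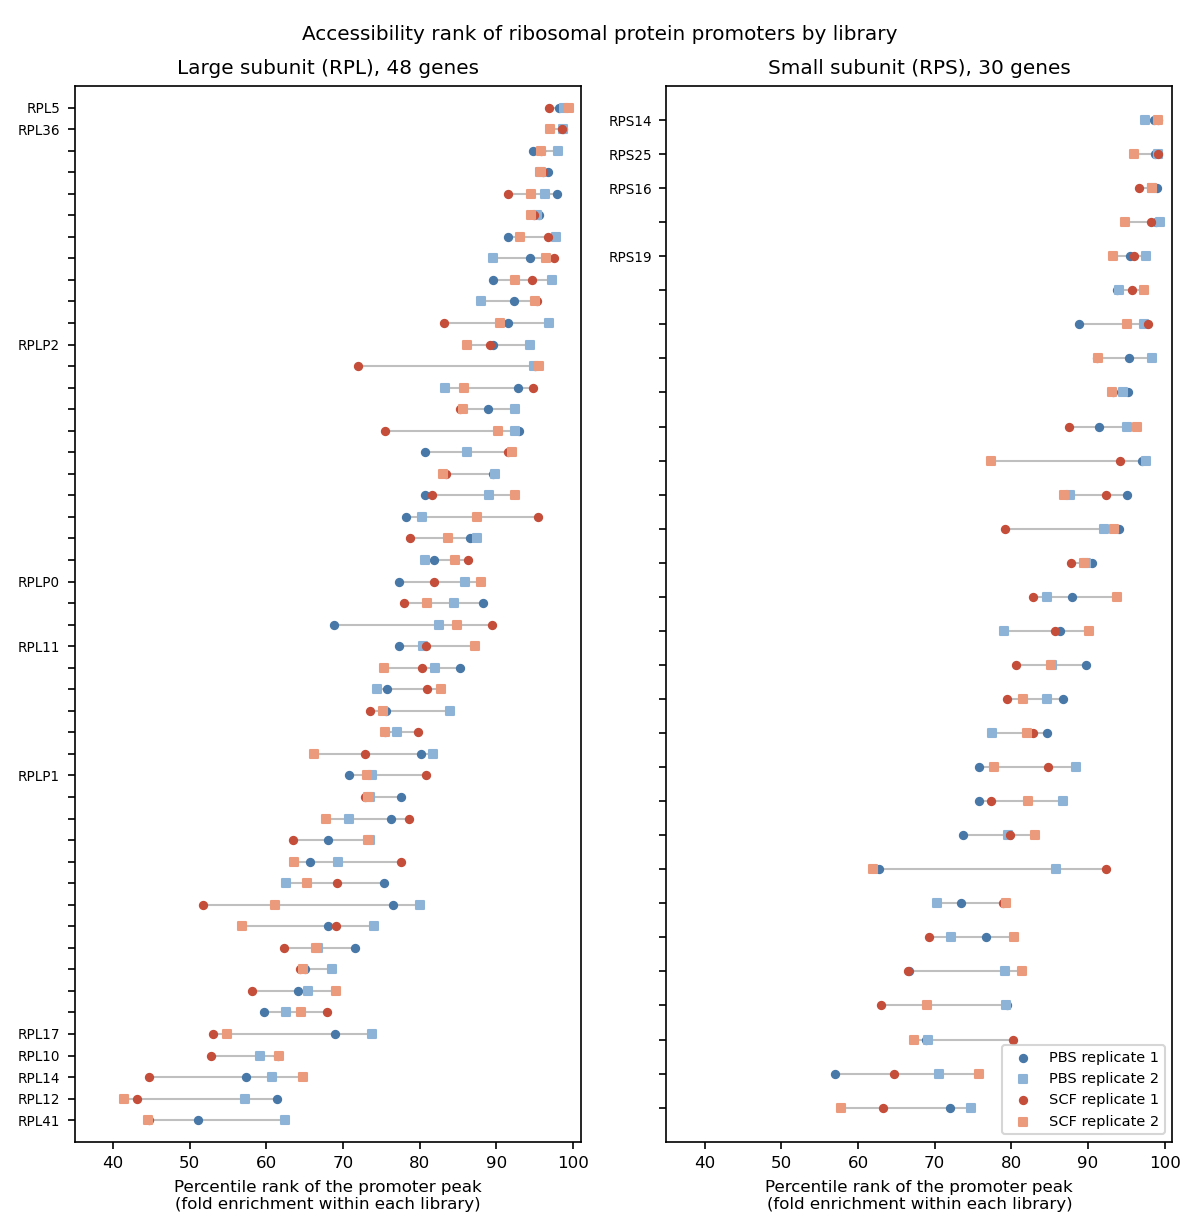
Percentile rank of the promoter peak (x axis, fold enrichment within each library) for the 78 members with a peak in all 4 libraries, large subunit left and small subunit right, sorted by mean rank, with names for the 5 highest and 5 lowest, the P-stalk genes, RPL11 and RPS19; each point is a library and the grey line joins the lowest and highest. RPS14 and RPL5 stand at the top at 96.8 or more in every library, and RPL41 and RPL12 at the bottom at 62.4 or less.

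**Figure D2:**
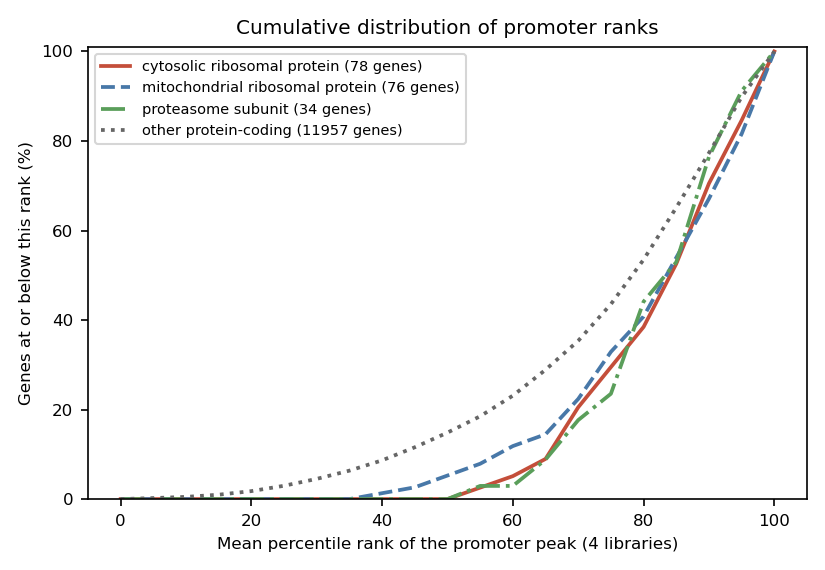
Share of genes (y axis, percent) whose mean rank over the 4 libraries lies at or below the value on the x axis, for genes with a promoter peak in all 4 libraries. The 3 sets of constitutive complex genes run close together to the right of the other protein-coding genes, with medians of 83.3, 83.9 and 84.5 against 78.4.

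RPS14, a protein of the small subunit's platform, ranked highest, with fold enrichments of 18.03 and 16.4 with PBS and 18.9 and 18.04 with SCF. The lower SCF value was level with the higher PBS value, and after centring on each library's median the treatments overlapped. RPL5, which binds 5S rRNA, had 17.4 and 18.0 with PBS and 16.5 and 18.8 with SCF. RPS25 had 18.3 and 18.6 with PBS and 18.8 and 15.1 with SCF. In RPL5 and RPS25 the treatments overlapped. RPS16 had 18.8 and 17.3 with PBS and 16.4 and 17.0 with SCF, so both PBS values lay above both SCF values. RPL36 had similar values, between 15.8 and 18.3, but its peak was not at the canonical start, as described with the summit positions.

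RPL41, which encodes a very short peptide of the large subunit, had the lowest mean rank, with fold enrichments of 7.29 and 8.19 with PBS and 6.73 and 6.31 with SCF. RPL12, a protein at the base of the ribosomal stalk, had 8.53 and 7.51 with PBS and 6.65 and 5.94 with SCF. RPL17 had 9.65 and 10.01 with PBS and 7.69 and 7.36 with SCF. In these 3 genes every PBS value exceeded every SCF value. RPL14 had 7.97 in both PBS libraries and 6.73 and 8.56 with SCF, and RPL10 had 8.55 and 7.73 with PBS and 7.66 and 8.16 with SCF, so the treatments overlapped in both.

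Fold enrichment divides by the local background, and the order of members changed with the measure. Ranked by −log10 p, the same peaks had a median of 87.1 in the members and 80.9 in all protein-coding promoters, whereas mitochondrial ribosomal protein promoters had 82.6 and proteasome promoters 84.0. The summit pileup divided by the genome-wide background had a median of 87.0 in the members, 63.5 in all protein-coding promoters, 62.4 in mitochondrial ribosomal protein promoters and 67.9 in proteasome promoters. RPL28, a large subunit protein, had the highest mean rank by −log10 p, 99.8, with summit pileups of 316 and 390 fragments with PBS and 347 and 273 with SCF. RPL41, lowest by fold enrichment, had pileups of 78 to 167 fragments and a mean rank of 82.3 by −log10 p. The paralog RPL39L had pileups of only 26 to 40 fragments but a mean rank of 85.3 by fold enrichment. Across the 78 members the Spearman correlation between the 2 ranks was 0.70, a description of genes within the same 4 libraries.

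The subunits overlapped widely. Large subunit promoters (48 genes with a peak) had a median mean rank of 82.2 and small subunit promoters (30 genes) 86.3. The median summit pileup over background was 76.8 in the large and 103.5 in the small subunit set. Of the 6 members that ranked above 97, RPL5 and RPL36 belong to the large subunit and RPS14, RPS16, RPS25 and RPSA to the small subunit. RPL36 ranked there through a peak at a mean of -9.45 kb (upstream) from its canonical start. At that start it ranked only 14.8 to 35.3. The lowest 5 (RPL41, RPL12, RPL14, RPL10 and RPL17) all belong to the large subunit. No test was made of this difference, since the members are not replicates of a condition.

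The genes mutated in Diamond-Blackfan anaemia mostly had accessible promoters. Of 20 such genes, 19 (95%) had a promoter peak in all 4 libraries, level with the 95.1% of all members. The share over all protein-coding genes was 59.7%. The median mean rank was 86.4 in these anaemia genes and 83.3 over all members. RPS19, the most often mutated of them, had fold enrichments of 15.6 and 16.6 with PBS and 16.0 and 14.1 with SCF. Its mean rank was 95.6 by fold enrichment and 99.6 by −log10 p. The lowest of its 4 values was an SCF library, and the treatments overlapped.

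RPL5 and RPL11 form the 5S ribonucleoprotein with 5S rRNA, which binds the p53 regulator MDM2 when ribosome assembly fails. RPL11 ranked lower than RPL5, with fold enrichments of 11.04 and 11.22 with PBS and 11.8 and 12.4 with SCF. Its mean rank was 81.4, and both SCF values lay above both PBS values. The SCF minus PBS difference of RPL11 was 0.12 on the log2 scale with a standard error of 0.14 (limma across all regions, adjusted p = 0.935).

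The P-stalk, which recruits elongation factors to the ribosome, is built by RPLP0 with RPLP1 and RPLP2. RPLP2 had fold enrichments of 13.60 and 14.8 with PBS and 13.61 and 12.2 with SCF. RPLP0 had 11.03 and 12.3 with PBS and 12.02 and 12.6 with SCF, and RPLP1 had 9.93 and 10.01 with PBS and 11.8 and 9.85 with SCF. The treatments overlapped in RPLP0 and RPLP1, and in RPLP2 they met at 13.6 and lay apart, with PBS higher, after centring. The mean ranks of RPLP2, RPLP0 and RPLP1 were 89.8, 83.3 and 74.6.

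The genes of other TOP mRNAs had a median mean rank of 81.0, from 46.8 in FAU, whose product is processed into a small subunit protein, to 98.6 in EIF4B, an initiation factor. Ribosome biogenesis genes had a median of 85.7. In that list BYSL and PES1, both assembly factors, stood at 98.6 and 97.7, and UBTF, which activates rRNA transcription, at 45.0. The promoters of the 9 erythroid markers called in all libraries had a median rank of 41.7, below the lowest member, and a median pileup over background of 41.7. KLF1, a master regulator of erythroid genes, stood at 13.6 by fold enrichment. Its summit pileup was nevertheless 125 and 185 fragments with PBS and 107 and 105 with SCF. The median pileup over members was 93 and 117.5 with PBS and 85 and 78 with SCF. Other-lineage markers with a promoter peak in all libraries included CD14 and CSF1R.

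No promoter peak was called in any library for 4 members, of which RPL3L, RPL10L and RPS18 are described. RPL3L, expressed mainly in striated muscle, had its nearest peak 4.75 to 4.85 kb from the canonical start in the 4 libraries. RPL10L, an intronless copy expressed in testis, had its nearest peak 170.7 kb away. They are paralogs of RPL3 and RPL10, which serve in most tissues. The other paralogs in the set, RPL39L, RPS27L and RPL36AL, had promoter peaks in all libraries, with mean ranks of 85.3, 81.7 and 76.9.

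RPS18, a general component of the small subunit, lay in a stretch without peaks. It lies on chromosome 6 at 33239852 to 33244288 (GRCh37, plus strand), at the edge of the major histocompatibility complex, and its nearest peaks were 209 to 241 kb away. The longest stretch of chromosome 6 before RPS18 without a summit in any library, 4.03 Mb, began at position 28466066, and the first summit after RPS18 in any library followed position 33449109. Of the 183 protein-coding genes that start between these positions, limits chosen after the lists were seen, 0 had a promoter peak in all 4 libraries and 2 had one in any library. On the rest of the chromosome 65.9% of 865 genes had one in all 4. The libraries held 1 to 3 peaks in that interval, and 1818 to 2175 on the whole chromosome. The lists also held 9 to 11 peaks on the alternate haplotype contigs of chromosome 6, so these contigs were part of the authors' reference.

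No stretch of 75 bases (the read length given in the methods) within 500 bp of the RPS18 start site occurred more than once in the GRCh37 primary assembly, which does not hold the haplotype contigs. Any repeated stretch was found in 16 members, among them RPS29 with a share of 20.2%. The part of repeated sequence in the missing peaks was not tested. For RPS18 the lists give no measure of accessibility.

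The summits of most members lay close to the start. Positions are given from the canonical start, negative upstream. The median position of the summit was -51.6 bp, against -52.8 bp in all protein-coding promoters. The mean position lay within 200 bp of the start in 62 of 78 members (79.5%), against 66.7% of all protein-coding promoters. It lay upstream in 47 of 78 members (60.3%), against 59.1%. Among the mitochondrial ribosomal protein promoters 88.2% lay within 200 bp.

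**Figure D3:**
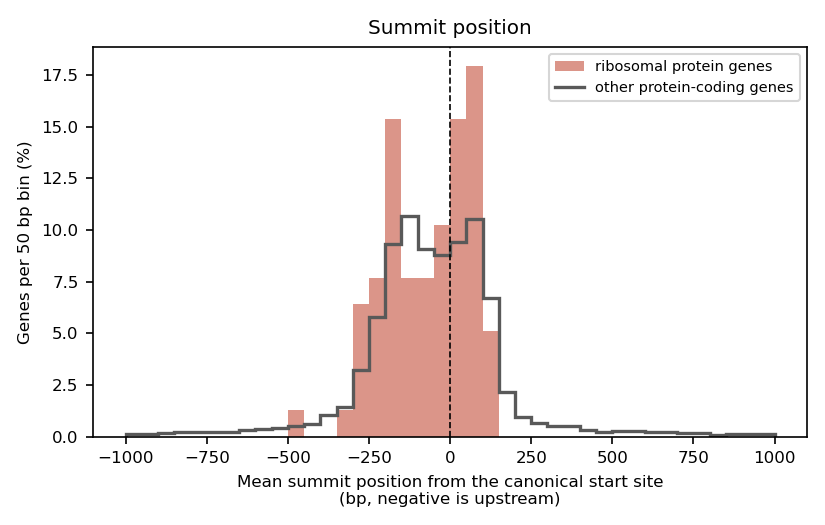
Mean position of the summit over the 4 libraries relative to the canonical start site (x axis, bp, negative is upstream) and the share of genes in each 50 bp bin (y axis, percent), for ribosomal protein genes (filled) and other protein-coding genes (line) with a promoter peak in all 4 libraries; summits beyond 1 kb are not drawn. Members lie on both sides of the start with a median of -51.6 bp, and RPL7 stands alone at -464 bp.

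The summits farthest from the canonical start lay near other start sites. The highest peak of RPL36 lay at a mean of -9.45 kb. In PBS replicate 1 its summit was 176 bp from an annotated alternative start of RPL36 and 176 bp from the start of HSD11B1L, which runs in the same direction. The highest peak of RPL6 lay at a mean of -9.42 kb, in PBS replicate 1 at 117 bp from the start of PTPN11, which runs in the opposite direction. The highest peak of RPL27A lay at a mean of 6.20 kb, near an alternative start inside the gene and, in PBS replicate 1, 6302 bp from the nearest start of another gene. All 3 genes also had a peak at the canonical start in every library. At its canonical start RPL36 ranked only 35.3 and 27.8 with PBS and 14.8 and 33.8 with SCF, although the pileup there was 147 and 174 fragments with PBS and 123 and 141 with SCF. RPL6 ranked 68.3 to 72.6 and RPL27A 71.4 to 83.9 at the canonical start. Taking canonical starts alone, an alternative added after the values were seen, gave a median member rank of 83.0.

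Among members with the summit near the canonical start, RPL7 lay farthest upstream, at -465 and -466 bp with PBS and -435 and -490 bp with SCF. Its peak was also the widest of the members, with a mean width of 2101 bp, against a median of 954 bp in the members and 924 bp in all protein-coding promoters. RPLP1 lay farthest downstream after RPL27A, at 196 and 161 bp with PBS and 59 and 81 bp with SCF, followed by RPL5 with a mean of 109 bp. The summit of RPS19 lay between -313 and -276 bp in the 4 libraries, beyond the 60 bases printed above. Summits of the same gene moved between libraries, as the values of RPLP1 show.

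The members were also described by their neighbours. A protein-coding gene starting on the opposite strand within 1 kb upstream was present for 14 of 82 members (17.1%), against 9.44% of protein-coding genes. The pairs included RPL9 with LIAS, RPS27A with CLHC1, RPL12 with LRSAM1, RPL7A with MED22 and RPS18 with VPS52. The 13 such members with a peak had a median rank of 80.7 and a median peak width of 1101 bp, and the other 65 had 83.3 and 932 bp. A peak between divergent starts belongs to both genes, and fragments were not assigned to either. Genes of snoRNAs, the guide RNAs of rRNA modification, lay inside 29 members (35.4%), against 2.13% of protein-coding genes, with 4 in each of RPL4, RPL7A, RPL13A and RPL23A. The 29 host genes had a median rank of 85.9 and the other 49 had 82.9. The 13 members with a peak and a TATA word had a median rank of 74.3 and the other 65 had 85.3, a split made after the ranks were known.

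The sequence within 100 bp of the summit was less rich in G and C in the members (median 59.7%) than in all protein-coding promoters (68.2%, 10399 distinct summits), and held a median of 16 against 19 CG dinucleotides. In this window 11 short words were searched on both strands (N is any base). A word is a string match, not a measured binding site. The word GGGCGG of SP and KLF factors was found in 27 of 78 members (34.6%), against 60.7% of all promoters. The size of this gap depended on the window. Within 50 bp of the summit the shares were 10.3% against 37.4%, and within 250 bp 76.9% against 86.3%. From 150 bp before to 50 bp after the start they were 53.8% against 70.4%. The word CCGGAAG of ETS factors such as GABP was found in 14 (17.9%), against 13.0%. Its shares were 37.2% against 25.2% within 250 bp, and 28.2% against 17.3% in the window around the start. The word TCTCGCGAG, recognised by BTB-type zinc finger factors, was found in 4 (5.13%), RPL4, RPS6 and RPS7 among them, against 0.885%. Within 250 bp of the summit it was in 7 members (8.97%, against 1.77%), RPS19 among them, whose copy can be read in the printed sequence.

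The remaining words were rare in both sets within 100 bp of the summit, the window used below unless another is named. AAGATGGCG of YY1 was found in RPL24, RPS15A and RPS28 (3.85%, against 2.23%). Within 250 bp the YY1 word was in 9 members (11.5%, against 5.36%). From 150 bp before to 50 bp after the start it was in 8 (10.3%, against 4.09%). TGACGTCA, the cAMP response element, was found in RPL3, RPL18 and RPS29 (3.85%, against 1.93%), and CGCATGCGC of NRF1 in 3 members, RPL10A and RPS29 among them (3.85%, against 2.25%). CACGTG, the E-box of MYC and other factors, was found in RPS2 and RPS28 (2.56%, against 6.59%). ACTACAA of ZNF143 was found in RPL23A (1.28%, against 2.04%), but within 250 bp in 7 members (8.97%, against 4.95%). AGATAA or TGATAA of GATA factors was found in 5 members (6.41%, against 4.61%), among them RPS25 and RPL28. Of the words of the factors downstream of Kit signalling that the study examined, GCGTGGG of EGR was found in RPLP2, RPS24 and RPS29 (3.85%, against 7.10%), and TGANTCA of AP-1 in RPS20 (1.28%, against 2.15%). The direction turned with the window for 3 more words. From 150 bp before to 50 bp after the start, GATA stood at 2.56% against 3.38%, and the cAMP response element at 2.56% against 3.13%. NRF1 stood at 3.85% against 4.75% within 250 bp, and at 0% against 0.94% within 50 bp. No word searched contains another.

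**Figure D4:**
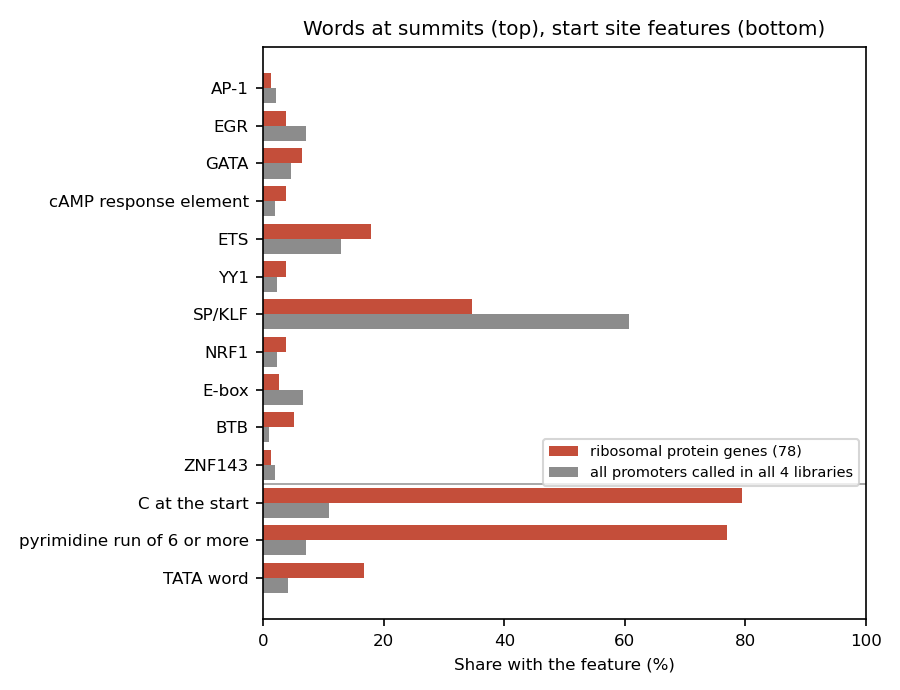
Share (x axis, percent) of the 78 ribosomal protein genes with a promoter peak in all 4 libraries (red) and of all protein-coding promoters called in all 4 libraries (grey) that hold each word within 100 bp of the summit (upper bars) or each feature at the canonical start (lower bars). C at the start (79.5% against 10.95%) and the pyrimidine run (76.9% against 7.02%) show the widest gaps, and the SP/KLF word is lower in the members (34.6% against 60.7%).

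The comparison of SCF with PBS asked whether acute Kit activation changes the accessibility of these promoters. No member was called. Across the 22355 regions called in all 4 libraries, limma on log2 fold enrichment centred on each library's median gave an adjusted p under 0.05 for 0% of regions, and for 0 of the 78 member regions. At an unadjusted p under 0.05 it took 6.9% of regions (1543), and 2 of 78 member regions, RPL7A and RPL17, both lower with SCF. The lowest adjusted p of a member was 0.686. The study compared reads with MAnorm and reported many sites with raised or lowered accessibility after SCF. Peak lists hold no reads, so that comparison was not repeated. With 2 libraries per treatment, the absence of a call here does not show an absence of change. With 2 libraries against 2, an exact permutation test of a single gene cannot give a p below 0.33, so none was run.

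The median difference over members was -0.04 on the log2 scale, with 29 members above 0 and 49 below (62.8% below). Over all regions the median was near 0 and 50.4% lay below 0, and over the 11955 promoter regions the median was -0.02 and 54.0% lay below 0. The median over members was -0.10 without SCF replicate 1, -0.07 without PBS replicate 2 and -0.02 without SCF replicate 2. The median size of the difference between the treatment means was 0.12 in members and 0.13 over all regions. The median size of the difference between the 2 replicates of a treatment was 0.11 with PBS and 0.14 with SCF in members, and 0.16 and 0.18 over all regions. The first is a difference of means of 2 libraries and the second of single libraries, so their sizes are not directly comparable.

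The lowest differences were in RPL7A, RPS23, RPL17, RPL12 and RPS21. RPL7A, a large subunit protein whose gene hosts 4 snoRNA genes, had fold enrichments of 10.9 and 11.2 with PBS and 7.53 and 8.09 with SCF. The groups did not overlap, and the difference was -0.50 on the log2 scale with a standard error of 0.15 (limma across all regions, adjusted p = 0.686). RPL17 differed by -0.38 with a standard error of 0.14 (limma, adjusted p = 0.686). RPS23, a protein of the decoding site, had 16.5 and 16.6 with PBS and 15.2 and 10.5 with SCF, so its difference of -0.38 rests on SCF replicate 2. It was -0.12 without that library, -0.66 without SCF replicate 1 and -0.19 with the recovered pileup in place of fold enrichment. RPS21 had 11.4 and 11.02 with PBS and 8.94 and 9.19 with SCF. RPL12 differed by -0.35 and RPS21 by -0.30, with adjusted p of 0.730 and 0.736 (limma).

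The highest differences were in RPL39L, RPL37, RPL35A, RPL28 and RPS12. RPL39L, a paralog of RPL39, had fold enrichments of 11.2 in both PBS libraries and 15.7 and 12.5 with SCF. Its difference was 0.32 on the log2 scale with a standard error of 0.17 (limma, adjusted p = 0.765), on pileups of 26 to 40 fragments. The difference of RPL39L was 0.15 without SCF replicate 1, 0.49 without SCF replicate 2 and 0.58 with the recovered pileup. RPL37 had 9.64 and 11.6 with PBS and 13.7 and 11.9 with SCF. RPL35A, an anaemia gene, had 11.7 and 12.4 with PBS and 14.3 and 13.7 with SCF. RPL28 had 15.1 and 13.2 with PBS and 16.9 and 15.5 with SCF, and RPS12 had 10.4 and 9.42 with PBS and 11.5 and 10.9 with SCF. In all 5 genes both SCF values lay above both PBS values, and the log2 differences of the last 4 were 0.18 to 0.27. Most of these sizes rested on single libraries. RPL37, at 0.27, was 0.13 without PBS replicate 1 and 0.16 without SCF replicate 1. RPL28, at 0.20, was 0.10 without PBS replicate 2 and 0.13 without SCF replicate 1, and RPS12, at 0.18, was 0.10 without PBS replicate 2. With the recovered pileup RPL37 was at 0.17, RPL28 at 0.11 and RPS12 at -0.058. RPL35A stayed at 0.17 to 0.25 without any 1 library.

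**Figure D5:**
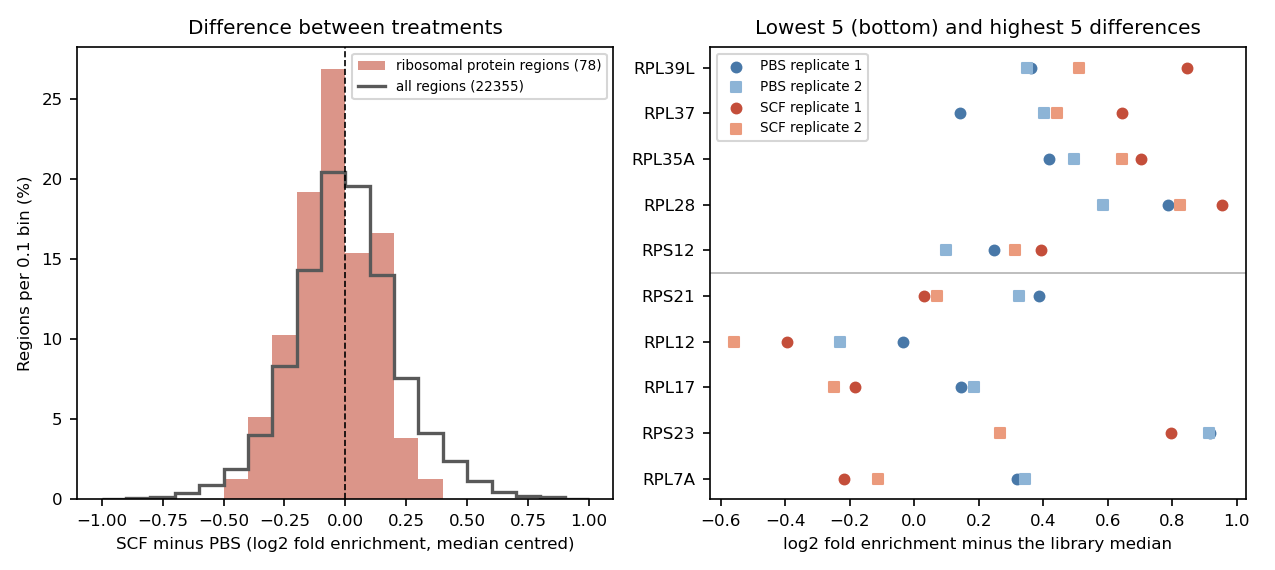
Left, the SCF minus PBS difference (x axis, log2 fold enrichment centred on each library's median) and the share of regions in each bin of 0.1 (y axis, percent) for the 78 member regions (filled) and all 22355 regions (line). Right, the centred log2 fold enrichment in each library for the 5 members with the lowest and the 5 with the highest difference, where PBS is blue and SCF is red; the treatments do not overlap in any of these 10 genes, and none was called.

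Non-overlap of the treatments was counted over all members. Both SCF libraries lay above both PBS libraries in 11 members (14.1%), against 18% of all regions and 15.7% of promoter regions. Both PBS libraries lay above both SCF libraries in 22 members (28.2%), against 18.1% of all regions and 20.2% of promoter regions. The 22 included RPSA, RPS16, RPS26, RPLP2 and RPL41. A rank gain, in which both SCF ranks exceed both PBS ranks by at least 10 points, was seen in 0 members, against 2.56% of all regions and 1.07% of promoter regions. A rank loss, the reverse, was seen in 4 members (RPL7A, RPL12, RPL17 and RPS21; 5.13%), against 3.04% of all regions and 2.12% of promoter regions. Ranks end at 100, so a member with a PBS rank above 90 could lose 10 points but could not gain them, and the 2 counts are not comparable with each other. No test was made of these shares, and the SCF libraries also had the lower background pileups, whose part was not tested.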

How the data were processed

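Peak lists of the 4 sgControl libraries were analysed, and the 4 sgEGR1 samples were not analysed here. The methods name the ENCODE ATAC-seq pipeline and hg38, while the list headers name hg19, which was used. The processing notes name Bowtie2 and SAMtools, and the caller is not given in the sources used here. Each deposited list gives the authors' fold enrichment (the ratio of summit pileup to local background defined above), −log10 p-value and −log10 q-value per peak, with no q above 0.0497. Peaks were called per library. The authors' integer score was not used.

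Summits were matched to start sites of GENCODE release 44 on GRCh37 (1 kb). The whole-number pileup that gives the deposited ratio and −log10 p under a Poisson distribution was found within a relative tolerance of 0.0001 for 100% of peaks with −log10 p under 300. In that ratio 1 was added to both pileup and background. Peaks sharing 1 bp or more were merged into regions, and limma 3.58.1 (R 4.3.3, Benjamini-Hochberg) compared 2 SCF with 2 PBS libraries on log2 fold enrichment centred on each library's median, after a test on simulated data. No filter on low values was set beyond a call in all 4 libraries. Replicate numbers are those of the labels. Peak names inside the lists number the libraries differently and share a single number between treatments (PBS replicate 1 and SCF replicate 2), so they allow no block. By the labels' numbers the correlation of deviations between same-numbered libraries was 0.012, and no pairing was used.

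The members and lists were chosen with earlier results of these data known. Genes named singly were the 5 highest and 5 lowest by rank and by SCF minus PBS difference, members without a peak, P-stalk and 5S genes, RPS19 and the 3 farthest summits on each side. Lists of anaemia, TOP, biogenesis, paralog and marker genes were counted. Some genes are not reported here.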

Additional observations from a re-analysis of the deposited data

How the results depend on the processing

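Under 12 alternative settings limma called 0 of the member promoters at an adjusted p under 0.05, as in the fit reported, and the lowest adjusted p of any region under any of them was 0.439. The number of members with a promoter peak was 78 without any 1 of the libraries, at a −log10 q of at least 5 and within 500 bp, 79 within 2 kb, 73 from the 5′ end of the gene record alone, and 82 of 87 with symbols that end in a letter and a digit. The median member rank was 83.1 to 84.0 without any 1 library, 87.3 by −log10 p and 78.9 with peaks of −log10 q at least 5 alone. The median summit position was -53.0 to -40.5 bp without any 1 library, -21 bp from the nearest start of any transcript and -43.8 bp for the peak nearest to the start. The median SCF minus PBS difference of members was -0.097 to -0.020 on the log2 scale without any 1 library (-0.097 without SCF replicate 1) and -0.010 with promoter regions alone. The replicate block, by the labels' numbers, cannot change this median in a balanced design, and it stayed at -0.04. With the block limma gave 0 calls and took 1570 regions at an unadjusted p under 0.05, against 1543 without the block. Of 120 alternative values for the 10 members with the largest differences, 1 changed sign, RPS12 at -0.058 with the recovered pileup, and the cause was not tested. Among the 120, values with the block could not differ, and those from canonical starts alone were the same for all 10 members. Sizes that moved by over 1.5 times without 1 library are given beside each gene. Of the 11 words, 6 were held by a higher share of members than of promoters, and 4 in the window around the start site. Depth is known only from the recovered pileups, so a missing peak means that none passed the threshold.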

Other observations

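The human genome holds many processed pseudogenes of ribosomal protein mRNAs. Of 1567 such pseudogenes in the annotation, 20 (1.28%) had a summit within 1 kb of their start in all 4 libraries and 48 in at least 1 library. Of 9020 other processed pseudogenes, 148 (1.64%) had one in all 4 libraries. Few processed pseudogenes had a peak in either set, so the low share was not particular to the copies of ribosomal protein genes.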
